A study of Mus musculus with 5 samples.

Results

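The 10 genes described here, Hps1, Hps3, Hps5, Dtnbp1, Ap3b1, Rab32, Rab38, Myo5a, Mreg and Lyst, encode parts of the machinery that builds melanosomes and moves them inside pigment cells. They were taken by name, and all 10 were found among the 56941 gene identifiers of the deposited count table. RNA was sequenced from the iridocorneal angle, the ring of tissue between iris and cornea through which aqueous humor leaves the eye, in 3 pools from DBA/2J mice and 2 pools from DBA/2J-Gpnmb+/SjJ mice, called Gpnmb+ here. All mice were 12 months old, untreated and of both sexes by their labels, and each pool was described as 3 mice, although the library names list 2 animals for each Gpnmb+ pool. DBA/2J mice lack functional Gpnmb, a melanosomal glycoprotein, and develop pigment dispersion and glaucoma. Gpnmb+ mice carry the functional Gpnmb allele. Both strains share the mutant Tyrp1b allele and, as DBA/2J strains, the dilute allele of Myo5a, so neither group is a model of wild-type pigmentation.

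Melanosomes are lysosome-related organelles. They start from endosomes, and the melanin-forming enzymes reach them in vesicles sorted by the adaptor AP-3 and by the biogenesis of lysosome-related organelles complexes BLOC-1 and BLOC-2. BLOC-3 activates the small GTPases Rab32 and Rab38, which direct that cargo traffic, and a Rab27a, melanophilin and myosin Va complex then holds mature melanosomes at the cell periphery. Loss of many of these genes lightens the coat or eyes of mice. In people, loss of several of them causes Hermansky-Pudlak syndrome, in which pigment, platelets and sometimes lung are affected.

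Counts on genes summed to between 43900661 and 49837758 per library. Gpnmb, which checks the genotype labels, had 45.9, 52.0 and 43.6 CPM (counts scaled per library to a common size with edgeR's trimmed mean of M-values) in the DBA/2J pools, against 2555 and 2260 in the Gpnmb+ pools, pool 1 first. Sex-linked RNA went against the labels of the Gpnmb+ pools, which were described as holding males. The Y-linked gene Ddx3y was counted 3608, 4168 and 1567 times in DBA/2J and 0 and 4 times in Gpnmb+. Xist, the X inactivation RNA, had 596, 0 and 2417 counts against 7843 and 9152. Sex and genotype therefore cannot be told apart in this comparison, for any gene below. None of the 10 genes lies on a sex chromosome or on chromosome 6, which carries Gpnmb. The pools were described as separate mice, and p-values measure the spread between these 5 pools.

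The comparison of DBA/2J with Gpnmb+ asks whether the RNA of the melanosome machinery differed with the Gpnmb genotype. A call needed a fold change of at least 1.5 and, in edgeR's quasi-likelihood test, a p-value of at most 0.05 after Benjamini-Hochberg adjustment, which 0.796% of the 19713 genes tested reached, 0.502% higher and 0.294% lower in DBA/2J. None of the 10 genes was called (0 of 10). Without adjustment, 2 of the 10 passed 0.05, Rab38 with higher and Mreg with lower values in DBA/2J, against a background of 15.9% of all genes tested. With the fold minimum added, 1 of the 10 passed without adjustment, Rab38, against 8.67% of all genes. DESeq2 called 1 of the 10, Rab38, against 4.7% of all genes, DESeq2 with ashr moderation also called 1, against 3.72%, and limma-voom called 0, against 0.964%. The log2 fold changes, positive where DBA/2J was higher, lay above 0 for 5 genes and below 0 for 5, with a median of -0.00 for the 10 genes and -0.02 for all genes tested. Their median size without sign was 0.13, beside 0.20 for all genes tested and 0.14 for the 9799 genes with mean CPM in the same range. These log2 fold changes are differences on the CPM scale, while levels are compared between genes per length of exon.

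For 7 of the 10 genes the whole 95% interval of the fold change lay inside 1.5-fold in either direction, a share of 70.0% against 42.6% of all genes tested and 70.9% of the genes of like mean CPM, so the 10 genes were close to genes of their own level. Hps1, Rab38 and Mreg were the 3 genes whose intervals reached beyond 1.5-fold. In 3 of the 10 genes the pools of the genotypes did not overlap, with Rab38 above in DBA/2J and Hps3 and Mreg below. The same was true of 34.5% of all genes tested, 17.3% above and 17.2% below.

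**Figure D1:**
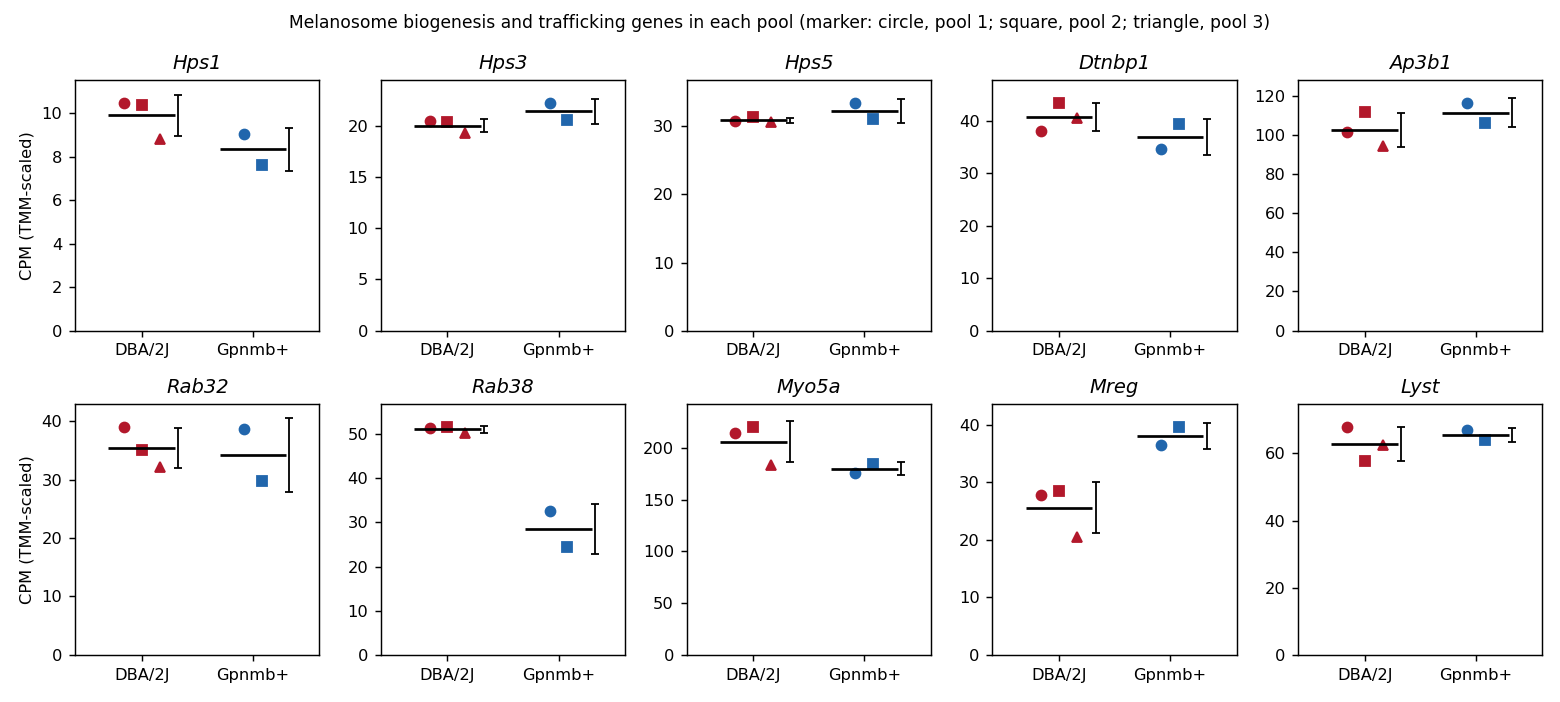
Level of each of the 10 genes in each pool, in CPM scaled by the trimmed mean of M-values, on axes that start at 0. Points are pools (circle, pool 1; square, pool 2; triangle, pool 3), horizontal lines are genotype means and side bars are ± SD (n = 3 DBA/2J, n = 2 Gpnmb+). Rab38 pools sit near 51 in DBA/2J and at 32.5 and 24.5 in Gpnmb+, while Mreg pools lie lower in DBA/2J than in Gpnmb+.

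Hps1 (ENSMUSG00000025188, GRCm39 chromosome 19, 42742871 to 42768438, minus strand) encodes the BLOC-3 subunit mutated in pale ear mice. Its level was 10.5, 10.4 and 8.83 CPM in DBA/2J and 9.05 and 7.65 CPM in Gpnmb+, with pool 1 first here and below. The DBA/2J mean of 9.91 ± 0.934 (SD, n = 3) exceeded the Gpnmb+ mean of 8.35 ± 0.990 (SD, n = 2), but DBA/2J pool 3 lay below Gpnmb+ pool 1. In log2 terms the difference was 0.25 (95% interval -0.12 to 0.62, edgeR adjusted p = 0.485). The summed CPM of 8 macrophage markers put the pools in the same order, at 1091, 1046 and 805 in DBA/2J and 878 and 744 in Gpnmb+, and its part in the Hps1 values was not tested. Hps4, the other BLOC-3 subunit, ran from 6.27 to 8.01 CPM with a log2 fold change of -0.09 (edgeR adjusted p = 0.834), which turned to 0.04 without Gpnmb+ pool 2.

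Hps3 (ENSMUSG00000027615, chromosome 3, 20050106 to 20089488, minus strand) and Hps5 (ENSMUSG00000014418, chromosome 7, 46409890 to 46446075, minus strand) encode BLOC-2 subunits, and their mutants are the cocoa and ruby-eye 2 mice. Hps3 had 20.5, 20.4 and 19.3 CPM in DBA/2J and 22.3 and 20.6 CPM in Gpnmb+, with means of 20.1 ± 0.657 (SD, n = 3) and 21.4 ± 1.22 (SD, n = 2). All DBA/2J pools lay below both Gpnmb+ pools, yet the nearest of them differed by less than the spread within either genotype. This gave a log2 fold change of -0.10 (95% interval -0.34 to 0.15, edgeR adjusted p = 0.692). Hps5 had 30.8, 31.3 and 30.6 CPM in DBA/2J and 33.5 and 31.0 CPM in Gpnmb+, and its pools overlapped. Its log2 fold change was -0.06 (95% interval -0.27 to 0.15, edgeR adjusted p = 0.779). Hps6, the subunit that completes BLOC-2, lay between 7.54 and 8.77 CPM with a log2 fold change of 0.08 (edgeR adjusted p = 0.832). The counting strand is not given in the sources used here. On the opposite strand, Hps3 shares 108 exon bases with Cp and Hps5 shares 292 with Gtf2h1, so reads over those bases cannot be assigned to one gene. Noncoding genes on the opposite strand share 262 of the 6574 exon bases of Hps1, 315 and 351 of the 10312 of Ap3b1, and 151, 175 and 278 of the 15087 of Myo5a.

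The promoters of Hps3, Hps5 and Hps1 are shown because, of the 9 genes with a promoter entry, these 3 hold an E-box form bound by MITF, the transcription factor of the pigment cell lineage, and its relatives TFEB and TFE3. The letters TCACGTG and TCATGTG were searched on both strands from 250 bases before to 50 bases after each start site (RefSeq, GRCm38.p6). TCACGTG read from the other strand is CACGTGA, and TCATGTG is CACATGA. Rab38 has no entry. Matches are in capitals, each run is 5′ to 3′ along the gene, and in Hps3 the matches on the 2 strands overlap.
Hps3, chr3:20035301-20035346, minus strand: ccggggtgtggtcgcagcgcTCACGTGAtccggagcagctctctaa
Hps5, chr7:46796047-46796128, minus strand: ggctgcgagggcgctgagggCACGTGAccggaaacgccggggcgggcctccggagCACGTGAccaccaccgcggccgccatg
Hps1, chr19:42779969-42780013, minus strand: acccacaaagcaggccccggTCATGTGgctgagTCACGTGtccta

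The matches begin 16 bases before the start site in Hps3, 227 and 192 bases before it in Hps5, and 15 and 2 bases before it in Hps1. Hps1 has a second annotated start whose window holds no match. Either form was found in 33.3% of the genes with an entry and in 8.4% of all 27025 genes in the promoter table, TCACGTG in 4.29% of all genes and TCATGTG in 4.31%. The windows of Dtnbp1, Ap3b1, Rab32, Myo5a, Mreg and Lyst held neither form. These are descriptions of the letters in each window, and occupancy was not measured here.

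Dtnbp1 (ENSMUSG00000057531, chromosome 13, 45050446 to 45155650, minus strand) encodes dysbindin, the BLOC-1 subunit lost in sandy mice. It had 38.2, 43.5 and 40.5 CPM in DBA/2J and 34.6 and 39.5 CPM in Gpnmb+, and the pools overlapped. In log2 terms the difference was 0.14 (95% interval -0.11 to 0.39, edgeR adjusted p = 0.569). The gene shares 1293 of its 12927 exon bases with Jarid2 on the opposite strand, the largest such overlap of any of the 10 genes, which leaves its count uncertain to that extent. The other BLOC-1 subunits numbered 7, of which 0 were called, and 6 of the 7 had intervals inside 1.5-fold.

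Ap3b1 (ENSMUSG00000021686, chromosome 13, 94495093 to 94703342, plus strand) encodes the large beta subunit of AP-3 that is mutated in pearl mice. Its level was 101, 112 and 94.5 CPM in DBA/2J and 117 and 106 CPM in Gpnmb+, so that DBA/2J pool 2 lay between the Gpnmb+ pools. The log2 fold change was -0.12 (95% interval -0.37 to 0.13, edgeR adjusted p = 0.619). Its AP-3 partners Ap3d1, the delta subunit lost in mocha mice, and Ap3m1, a medium subunit, had log2 fold changes of 0.08 (adjusted p = 0.644) and -0.07 (edgeR adjusted p = 0.759).

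Rab38 (ENSMUSG00000030559, chromosome 7, 88079466 to 88144036, plus strand), the GTPase mutated in chocolate mice, had the largest fold change of the 10 genes. It had 51.4, 51.6 and 50.2 CPM in DBA/2J and 32.5 and 24.5 CPM in Gpnmb+. Every DBA/2J pool was above both Gpnmb+ pools, and the DBA/2J pools lay close together while the Gpnmb+ pools did not. Means were 51.1 ± 0.774 (SD, n = 3) and 28.5 ± 5.72 (SD, n = 2). The log2 fold change was 0.84 (standard error 0.13), or 1.79-fold (95% interval 1.43 to 2.25). The quasi-likelihood test of edgeR gave an adjusted p = 0.0593, just outside the threshold.

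The Rab38 call depended on the test, the count minimum and 1 library. DESeq2 gave an adjusted p = 1.2e-05 at nearly the same log2 fold change of 0.85, and limma-voom an adjusted p = 0.0541. In edgeR, the adjusted p was 0.0315 with no count minimum and 0.0313 without Gpnmb+ pool 1, where the log2 fold change was 1.07, and it ran up to 0.171 over the other alternatives. The direction held in the 13 alternative fits, with log2 fold changes from 0.65 to 1.07.

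Markers of a neighbouring cell layer were also higher in DBA/2J. The nonpigmented ciliary epithelium, a layer of the ciliary body that the dissection set out to remove, was followed by 5 marker genes, all 5 with positive log2 fold changes and 2 of them called, Six6 and Col9a1. Their summed CPM was 335, 369 and 412 in DBA/2J and 171 and 103 in Gpnmb+. Both this sum and Rab38 were higher in the first than in the second Gpnmb+ pool. In DBA/2J the order differed, and Rab38 ran only from 50.2 to 51.6 CPM. The sum was highest in DBA/2J pool 3, where Rab38 was lowest. The part of these cells in the Rab38 difference was not tested. In bulk tissue, a change in the number of cells and a change of RNA per cell cannot be told apart.

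Rab32 (ENSMUSG00000019832, chromosome 10, 10419907 to 10434013, minus strand) is the paralog of Rab38 that acts at the same step and can partly replace it. It had 39, 35.0 and 32.1 CPM in DBA/2J and 38.6 and 29.7 CPM in Gpnmb+, and the range of Gpnmb+ covered most of that of DBA/2J. The log2 fold change was 0.05 (95% interval -0.30 to 0.41, edgeR adjusted p = 0.900) and its sign turned without DBA/2J pool 1 (-0.02) or without Gpnmb+ pool 2 (-0.13).

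Setting the paralogs against each other within a pool removes the library scaling. Per length, as TPM (counts per exon base scaled to a common library sum) over the union of exons, the Rab38 level was 1.07, 1.20 and 1.27 times the Rab32 level in DBA/2J and 0.684 and 0.667 times in Gpnmb+. On this length, Rab38 exceeded Rab32 in all 3 DBA/2J pools and lay below it in both Gpnmb+ pools. With the longest transcript as length, the ratios were 0.813, 0.909 and 0.963 in DBA/2J and 0.519 and 0.507 in Gpnmb+, so that Rab38 lay below Rab32 in all 5 pools. Which paralog was higher in DBA/2J thus depended on the length used, while the ratio of the genotypes cannot depend on it. The mean ratio was 1.18 ± 0.100 (SD, n = 3) against 0.676 ± 0.0116 (SD, n = 2), a log2 difference of 0.80 or 1.74-fold. The exact two-sided permutation test gave p = 0.2, which is the smallest value that 10 splits of 5 pools allow. With any 1 pool left out, the log2 difference lay between 0.74 and 0.87. Ankrd27, an effector that binds both GTPases, had a log2 fold change of -0.14 (edgeR adjusted p = 0.615).

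**Figure D2:**
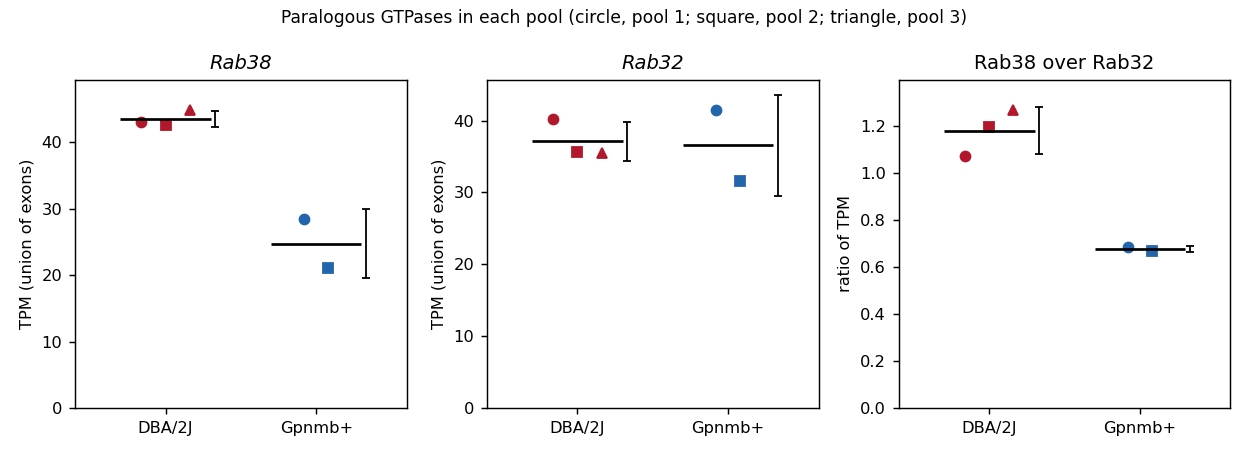
Level per exon length (TPM) of Rab38 and Rab32 and their ratio in each pool, on axes that start at 0, with points for pools (circle, pool 1; square, pool 2; triangle, pool 3), lines for genotype means and bars for ± SD (n = 3 DBA/2J, n = 2 Gpnmb+). The ratio lay between 1.07 and 1.27 in DBA/2J and at 0.684 and 0.667 in Gpnmb+, while Rab32 overlapped between the genotypes. Lengths are the union of exons, and with the longest transcript all 5 ratios lay below 1.

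Myo5a (ENSMUSG00000034593, chromosome 9, 74978297 to 75130970, plus strand) encodes myosin Va, the motor that captures melanosomes on peripheral actin. It had 214, 220 and 184 CPM in DBA/2J and 175 and 185 CPM in Gpnmb+, the highest CPM of the 10 genes. DBA/2J pool 3 lay between the Gpnmb+ pools. This gave a log2 fold change of 0.20 (95% interval -0.06 to 0.46, edgeR adjusted p = 0.432). The dilute allele is a retroviral insertion in an intron of Myo5a that disturbs its splicing, and counts over the whole gene do not separate normal from altered transcripts.

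Mreg (ENSMUSG00000039395, chromosome 1, 72198388 to 72251489, minus strand) encodes melanoregulin, the product of the dilute suppressor locus, whose loss suppresses the pale coat of dilute mice. It had 27.7, 28.4 and 20.5 CPM in DBA/2J and 36.4 and 39.6 CPM in Gpnmb+, and every DBA/2J pool lay below both Gpnmb+ pools. Means were 25.5 ± 4.41 (SD, n = 3) and 38.0 ± 2.28 (SD, n = 2), so that Gpnmb+ was 1.49-fold higher. On the log2 scale the difference was -0.57 (standard error 0.16, 95% interval -0.96 to -0.19). The quasi-likelihood test of edgeR gave an adjusted p = 0.170. DESeq2 gave an adjusted p = 0.0387, but the fold was under the 1.5-fold minimum. The direction held in the 13 alternative fits, from -0.66 to -0.36. The lowest Mreg level fell in DBA/2J pool 3, which also had the lowest sum of 5 corneal epithelium markers, 6266 CPM against 9529 to 11777 in the other pools. The corneal sum did not follow Mreg elsewhere, with 10467 in DBA/2J pool 2 and 10255 in Gpnmb+ pool 2. DBA/2J pool 3 also had the highest sums of pigment cell (4580), nonpigmented ciliary epithelium (412) and skeletal muscle (335) markers. Leaving that pool out left a log2 fold change of -0.44. Summed markers of the pigmented epithelium were 178 to 293 CPM in DBA/2J and 350 to 678 in Gpnmb+. Like Mreg, this sum was lower in every DBA/2J pool and highest in Gpnmb+ pool 2. Of its 5 markers, 4 had negative and 1 had positive log2 fold changes. In 2 of the 5 every DBA/2J pool was lower, against 17.2% of all genes tested. The part of any of these cell types in the Mreg values was not tested.

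Lyst (ENSMUSG00000019726, chromosome 13, 13764902 to 13953388, plus strand) encodes the BEACH-domain protein lost in beige mice, whose lysosomes and melanosomes are enlarged. It had 67.9, 57.7 and 62.5 CPM in DBA/2J and 66.9 and 63.9 CPM in Gpnmb+, with both Gpnmb+ pools inside the DBA/2J range. The log2 fold change was -0.06 (95% interval -0.29 to 0.17, edgeR adjusted p = 0.810).

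**Figure D3:**
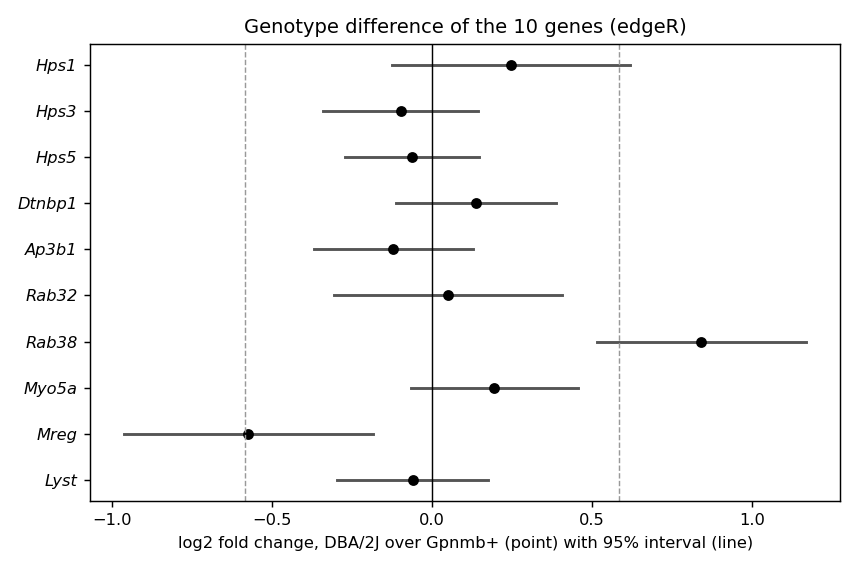
Log2 fold change of DBA/2J over Gpnmb+ for each of the 10 genes (points) with the 95% interval from edgeR (lines), with dashed lines at 1.5-fold in either direction. The Rab38 interval, 0.51 to 1.17, and the Mreg interval, -0.96 to -0.19, leave out 0, and 7 of the 10 intervals stay inside the dashed lines.

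Per length, the levels of the 10 genes over all 5 pools ran from 53.9 ± 4.06 TPM for Myo5a to 5.87 ± 0.634 TPM for Hps1 (SD, n = 5). Myo5a stood above Ap3b1 (42.8 ± 3.30) in all 5 pools, with no overlap of their ranges. Ap3b1, Rab32 (36.9 ± 4.01), Rab38 (36.0 ± 10.7) and Mreg (34.5 ± 8.65) formed a run in which each neighbour overlapped the next. Hps5 (19.6 ± 1.02) lay below Mreg and above Dtnbp1 (12.6 ± 0.978) without overlap, Dtnbp1, Lyst (11.0 ± 0.829) and Hps3 (8.93 ± 0.526) overlapped in turn, and Hps1 lay below Hps3 in all 5 pools. Rab38 and Mreg had the widest spread, with the genotypes apart in opposite directions. In DBA/2J the Rab38 level was 43.6 ± 1.22 TPM and that of Mreg 28.5 ± 3.83 TPM (SD, n = 3), and in Gpnmb+ they were 24.7 ± 5.18 and 43.4 ± 2.22 TPM (SD, n = 2). The order depends on the length used. With the longest transcript in place of all exons, Dtnbp1 stood at 40.9 TPM, second to Myo5a at 52.7, Rab38 at 27.4 and Mreg at 27.3 lay below Rab32 at 37.0, and Hps3 at 15.9 stood above Lyst at 15.2.

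The genes that work beside these 10 were followed with a list of 54 partners in the same complexes and steps. The list also holds family relatives, such as the BEACH relatives of Lyst. Of the 54, 53 were in the table and tested, and Vamp7 was not matched. Unlike the 10 genes, some partners lie on the X chromosome (Ap1s2, Rab9, Rab9b and Chm) or, like Gpnmb, on chromosome 6 (Rab7). None was called (0 of 53), against the background of 0.796% of all genes tested. Without adjustment, 4 passed 0.05, or 7.55% against 15.9% of all genes, 1 with higher values in DBA/2J (Lrba) and 3 with lower values (Myrip, Nbeal2 and Myo5c). DESeq2, with and without ashr moderation, called 1 (Myrip), against 4.7% of all genes without ashr and 3.72% with it, and limma-voom called 0, against 0.964%. The median log2 fold change was -0.03, beside -0.02 for all genes tested, and 44 of the 53 (83.0%) had intervals inside 1.5-fold. That share was 42.6% of all genes and 70.9% of the genes with mean CPM in the range of the 10 genes. Some partners lie outside that range. The pools did not overlap for 21 of the 53, 10 above and 11 below in DBA/2J, or 39.6%, against 34.5% of all genes.

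Of the 8 partners listed for peripheral transport, which include family relatives of Myo5a, 7 had negative log2 fold changes, against 52.6% of all genes tested. In 5 of the 8 every DBA/2J pool was lower, against 17.2%. The peripheral group itself was not tested, nor its difference from other groups. Negative log2 fold changes were also found for 6 of 7 BLOC-1 partners. The same held for 6 of the 7 tested Rab effectors, Rab prenylation enzymes and SNARE proteins. In each of these other groups 1 of 7 lay below in every DBA/2J pool. Rab27a, the GTPase mutated in ashen mice, had 181, 207 and 221 CPM in DBA/2J and 227 and 247 CPM in Gpnmb+, with a log2 fold change of -0.22 (edgeR adjusted p = 0.400). Mlph, the leaden gene product melanophilin that links Rab27a to myosin Va, had 92.4, 89.1 and 110 CPM against 115 and 117 CPM, with a log2 fold change of -0.26 (edgeR adjusted p = 0.328). Myrip, which links Rab27a to myosins VIIa and Va, had 8.08, 10.9 and 12.9 CPM against 16.4 and 28.9 CPM. Its log2 fold change of -1.09 was the largest decrease of the 53 (standard error 0.29, edgeR adjusted p = 0.159), and DESeq2 gave an adjusted p = 0.0122. The study also lists Myrip among genes lower in DBA/2J in both RNA and protein. The RNA part of that list was chosen on these samples, and the protein part was measured in individual eyes. Summed markers of the pigmented epithelium, 178 to 293 CPM in DBA/2J and 350 to 678 in Gpnmb+, were highest in Gpnmb+ pool 2, as Myrip was. Of these 5 markers, 4 had negative and 1 had positive log2 fold changes. Their part in the Rab27a, Mlph and Myrip values was not tested.

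The HOPS complex, which tethers late endosomes and lysosomes for fusion, had 6 of 6 log2 fold changes above 0, against 47.4% of all genes tested, and 4 of the 6 genes above in every DBA/2J pool, against 17.3%. The group was not tested, nor its difference from other groups. Its values were small, from 0.04 to 0.20 (Vps11), and all 6 intervals lay inside 1.5-fold. Among the BEACH relatives of Lyst, Nbeal2, which is needed for platelet alpha granules, had a log2 fold change of -0.54 (adjusted p = 0.193), Lrba 0.24 (adjusted p = 0.205) and Wdfy4 0.44 (edgeR adjusted p = 0.394). Rab9b, on the X chromosome and with 23 to 56 counts per pool, had a log2 fold change of -0.65 (edgeR adjusted p = 0.412). Sex and genotype cannot be told apart in its values.

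**Figure D4:**
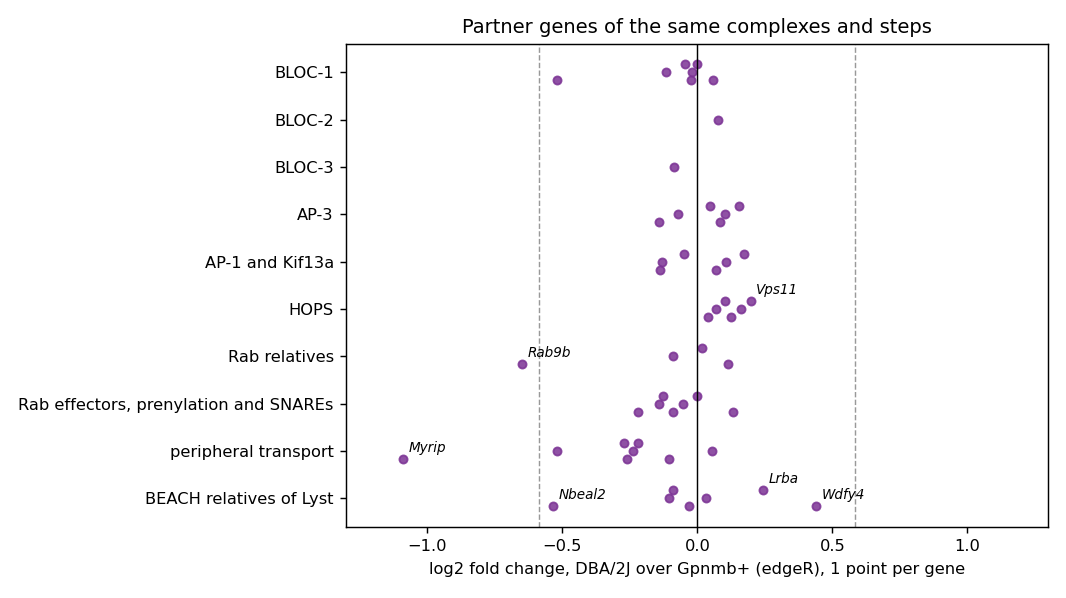
Log2 fold change of DBA/2J over Gpnmb+ (edgeR) for the 53 partner genes, 1 point per gene, by complex, step or gene family. Dashed lines mark 1.5-fold, and names are given for the 3 largest values in each direction. Points crowd near 0, with Myrip at -1.09 and Wdfy4 at 0.44 as the extremes.

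Whether the pools held similar amounts of pigment cell RNA was read from 9 markers of melanin-forming cells. Their summed CPM ran from 3479 to 4580 in DBA/2J and from 3752 to 4389 in Gpnmb+, so the genotypes overlapped, and the lowest count of any of the 9 in any pool was 105. Tyr, tyrosinase, had a log2 fold change of 0.19 (adjusted p = 0.504), Tyrp1 0.07 (adjusted p = 0.840) and Dct, dopachrome tautomerase, -0.07 (edgeR adjusted p = 0.897). The values were -0.77 for the fibril protein gene Pmel (adjusted p = 0.164), -0.52 for Slc24a5 (adjusted p = 0.184), -0.27 for Oca2 (adjusted p = 0.249), -0.42 for Gpr143 (adjusted p = 0.370) and -0.23 for Mlana (edgeR adjusted p = 0.583). Slc45a2, a melanosomal transporter, was the single marker called, at -2.46 (edgeR adjusted p = 0.0262), a call lost without DBA/2J pool 1, DBA/2J pool 2 or Gpnmb+ pool 2 (adjusted p = 0.0906 to 0.117), with log2 fold changes of -2.37, -2.30 and -2.42 in those fits. The log2 fold changes were negative for 7 of the 9 markers. In 5 of the 9 every DBA/2J pool was lower, against 17.2% of all genes tested. In 1 of the 9 every DBA/2J pool was higher, against 17.3%. Without adjustment, 4 of the 9 passed 0.05 in edgeR, all lower in DBA/2J, against 15.9% of all genes. Overlap of the sums alone thus does not settle whether pigment cell content was alike. The part of pigment cell content in the values of Rab38 and Mreg was not tested.

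Other cell types also differed between the pools. Summed markers of Schwann cells (142 to 187 CPM in DBA/2J, 220 to 264 in Gpnmb+) lay below in every DBA/2J pool, with 6 of 6 log2 fold changes negative. Neuronal process sums (27.4 to 38.7 against 74.1 to 116) also lay below, but 3 of the 6 genes had negative and 3 positive log2 fold changes, with a median of 0.03, and Nefm and Nefl held most of the sum in Gpnmb+. The trabecular meshwork and angle stroma sum (6443 to 6976 against 5524 to 6253) lay above, although 5 of the 6 log2 fold changes were negative (median -0.63). The higher sum came from Chil1, which ran opposite to the other 5. Sums of macrophage, lymphocyte, mast cell, corneal epithelium, skeletal muscle and photoreceptor markers overlapped. Photoreceptor sums were 560 to 826 CPM in DBA/2J, and 338 and 1838 in Gpnmb+ pools 1 and 2, with 6 of 6 log2 fold changes negative. Mreg, Myrip and the pigmented epithelium sum were also highest in Gpnmb+ pool 2. No marker was at 0 in any pool. The part of these cells in the values of the 10 genes was not tested.

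**Figure D5:**
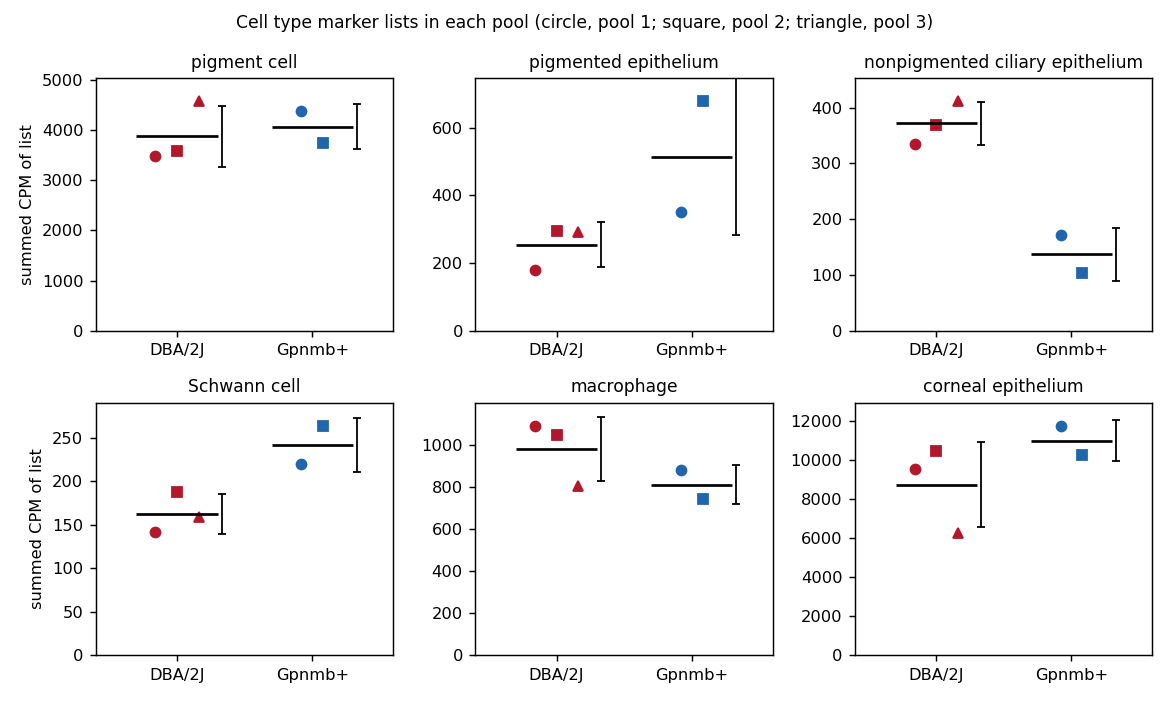
Summed CPM of 6 marker lists in each pool, on axes that start at 0, with points for pools (circle, pool 1; square, pool 2; triangle, pool 3), lines for genotype means and bars for ± SD (n = 3 DBA/2J, n = 2 Gpnmb+). Pigment cell sums overlap between 3479 and 4580, whereas nonpigmented ciliary epithelium sums are 335 to 412 in DBA/2J and 103 to 171 in Gpnmb+.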

How the data were processed

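Per the labels and the study's methods, polyadenylated RNA was sequenced as paired-end reads, trimmed with fastp and aligned with STAR to GRCm39, and the authors deposited raw read counts per gene without normalization. The counting strand is not given in the sources used here. All 5 sample columns were used. Identifiers were named from GENCODE M39 (56323 of 56941 matched) and sequences came from RefSeq tables. Genes reaching 10 counts in 1 pool or more were tested, and genotypes were compared with edgeR 4.0.16 without covariates, with DESeq2 1.42.0, ashr 2.2.63 and limma 3.58.1 as alternatives (R 4.3.3), after tests on simulated data. TPM used the union of annotated exons. The text names all 10 genes, their direct complex or effector partners, partners called, the 3 partners of largest log2 fold change in each direction, the pigment cell markers, Gpnmb and sex-linked genes. Myo5c and the marker genes outside pigment cells were named after their values were seen. Ap1s2, Rab9, Chm and Rab7 were named for their chromosomes. The 10 genes, partner and marker lists were chosen with earlier results of these data known. Alternatives were other scalings, tests, filters and thresholds, a replicate block, and each pool left out. Depth of 43900661 to 49837758 counts gave 374 to 9525 counts for each of the 10 genes in each pool, and intervals cover these pools, not the mice within them. Results for some genes were left out.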

Additional observations from a re-analysis of the deposited data

How the results depend on the processing

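The number of called genes, 157 in edgeR, was 927 with DESeq2, 734 with ashr moderation, 360 with no count filter, 1710 with unadjusted p-values, and 1 to 217 with each pool left out (6, 1 and 17 without DBA/2J pools 1, 2 and 3, and 217 and 2 without Gpnmb+ pools 1 and 2). Without a Gpnmb+ pool, the lone library is assumed to vary like the DBA/2J pools. Of the 10 genes, 1 (Rab38) in place of 0 was called with DESeq2, with ashr moderation, with no count filter, with unadjusted p-values and without Gpnmb+ pool 1, a range of 0 to 1 with each pool left out. Of the partners, 1 (Myrip) in place of 0 was called with DESeq2, with ashr moderation and with unadjusted p-values, and 0 with any pool left out. Replicate numbers 1 and 2 occur in both genotypes, and deviations of same-numbered pools correlated at 0.279 and 0.254 over the 19713 genes, with nothing else tying them. Deviations of the 2 Gpnmb+ pools from their mean are mirror images, so these 2 correlations are not independent of each other. With the number as a replicate block, 220 genes, 0 of the 10 and 0 partners were called, and Rab38 had a log2 fold change of 0.87 (edgeR adjusted p = 0.0632). Pool number 3 occurs only in DBA/2J, so in the block fit the genotype contrast rests on pools 1 and 2 of each genotype. Pmel passed the threshold with the block, at -0.97 (edgeR adjusted p = 0.0310), and with DESeq2, at -0.77. Signs turned with a pool left out for Rab32 (range -0.13 to 0.25, with -0.02 without DBA/2J pool 1), Hps4 (-0.20 to 0.044, the latter without Gpnmb+ pool 2), Tyrp1 (-0.056 to 0.22, the former without Gpnmb+ pool 2) and Dct (-0.25 to 0.052, with 0.0085 and 0.021 without DBA/2J pools 1 and 2 and 0.052 without Gpnmb+ pool 1). With the longest transcript as length, levels moved to 7.01 TPM for Hps1, 15.9 for Hps3, 40.9 for Dtnbp1, 37.8 for Ap3b1 and 15.2 for Lyst. The mean of Rab38 moved from 36.0 to 27.4 and that of Mreg from 34.5 to 27.3. In an alternative chosen after seeing the data, the Rab38 to Rab32 ratio on that length averaged 0.895 in DBA/2J and 0.513 in Gpnmb+. The causes of the other changes were not tested. Depth gave at least 374 counts in every pool for each of the 10 genes, and 23 to 56 for Rab9b.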
